A study of Rattus norvegicus with 8 samples.

Results

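The baseline profile of the intestinal epithelium on tap water (TW) rests on 2 of the 8 arrays of the series, those labelled as tap water, and describes 14217 genes by level and rank. The other 6 arrays hold water restriction (WR), deep-sea water (DSW1200) and selenium water (SeW), with 2 arrays each, and enter below only where the spread of a pair is set beside that of the TW pair. Each TW array came from Wistar rats aged 4 months that drank tap water for 3 days, according to the labels; the methods describe the rats as female. Proximal segments of the small intestine were treated with a reducing agent and then with a calcium chelator, and the epithelial cells that came loose on shaking were filtered, spun down and extracted for total RNA. The labels call the tissue intestinal epithelium and the study speaks of duodenal epithelium. Neither source states whether the 2 arrays came from separate animals or from pools, so the spread between them may be technical.

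The lining of the small intestine is a single sheet of cells that is renewed from stem cells in the crypts. Most cells that leave the crypt become absorptive enterocytes, which carry a brush border of microvilli with digestive enzymes and transporters, while goblet cells secrete mucus, Paneth cells at the crypt base release antimicrobial peptides, and rare enteroendocrine and tuft cells sense the contents of the gut. The proximal part takes up iron, calcium, fat and sugars, and the distal part recovers bile acids.

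Signal intensities were quantile normalized over the 8 arrays, so every array has the same distribution of values. The level of a gene is the normalized signal of its brightest probe set, given for TW replicate 1 and then for TW replicate 2. Percentile is the rank of that signal among the 14217 genes of the array, averaged over the 2 arrays, with 100 for the brightest gene. Brightness also depends on the probes, so a percentile places a gene on these arrays and is not a transcript count. In the 4525 genes with several probe sets, these can disagree widely. The dimmest probe set had a mean signal of 9.16 for *Apob*, 5.24 for *Hnf4a* and 4.48 for *Fos*, but 3912 for *Gda* and 2142 for *Atp1b1*. As a lower reference, the 27 control probe sets for the *Bacillus* genes dap, lys, phe, thr and trp, which rat RNA does not contain, had a median of 1.25 and 2.35 and reached 7.03 and 5.95, and 32.7% and 30.5% of genes lay at or under that highest blank value. Before normalization the median signal was 8.4 and 4.3. The ratio of 3' to 5' signal, which is higher in degraded or incompletely copied RNA, was 24.1 and 20.6 for beta-actin and 2.66 and 3.08 for GAPDH. The beta-actin ratio was thus high on both arrays. Its part in the low signal of dim genes was not tested, so a signal near the blanks does not show that a transcript was absent.

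The 5 marker genes were all far above the blank controls. *Fabp2*, the fatty acid binding protein of enterocytes, had a signal of 5378 and 6297 (5838 ± 650, SD, n = 2). *Apoa1*, an apolipoprotein that enterocytes secrete, had 5557 and 7269 (6413 ± 1211, SD, n = 2). For *Si*, the brush border sucrase-isomaltase, the values were 3160 and 2046 (2603 ± 787, SD, n = 2), and for *Muc2*, the main mucin of goblet cells, 2675 and 3015 (2845 ± 241, SD, n = 2). These 4 genes lay at percentile 99.4 or above. *Lyz2*, a lysozyme made by Paneth cells and by macrophages, had 436 and 258 (347 ± 126, SD, n = 2) and lay at percentile 91.5. None of the 5 differed by more than 2-fold between the arrays, and *Lyz2* was the furthest apart of them at 1.69-fold.

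The 250 bases before the annotated start are shown for 4 of the markers and for *Fabp1*, the liver-type fatty acid binding protein, whose signal of 7833 and 6779 placed it at rank 3 among all genes. They are RefSeq sequences of rat build GRCr8, written 5′ to 3′ on the strand of the gene. Capitals mark matches, on either strand, to GTTAAT (an HNF1 core), CAAAGT (an HNF4 core), TTTATG (a CDX core), AGATAA (the GATA site) and TATAAA (the TATA box). HNF1, HNF4, CDX and GATA factors are the transcription factor families best known from enterocyte genes. *Fabp2* lies at chr2:213724379-213724628 (plus strand), *Fabp1* at chr4:104749090-104749339 (plus strand), *Si* at chr2:159884903-159885152 (minus strand), *Muc2* at chr1:206228785-206229034 (plus strand) and *Lyz2* at chr7:54798012-54798261 (minus strand).
Fabp2: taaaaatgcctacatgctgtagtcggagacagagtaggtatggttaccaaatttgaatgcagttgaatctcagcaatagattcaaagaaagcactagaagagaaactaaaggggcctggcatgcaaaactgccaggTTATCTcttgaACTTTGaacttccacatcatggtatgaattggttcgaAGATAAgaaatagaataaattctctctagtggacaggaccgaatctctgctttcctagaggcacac
Fabp1: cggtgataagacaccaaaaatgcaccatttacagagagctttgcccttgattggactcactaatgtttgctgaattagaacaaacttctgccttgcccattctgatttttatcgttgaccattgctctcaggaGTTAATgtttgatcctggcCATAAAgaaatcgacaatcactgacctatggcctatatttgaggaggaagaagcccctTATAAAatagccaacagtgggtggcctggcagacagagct
Si: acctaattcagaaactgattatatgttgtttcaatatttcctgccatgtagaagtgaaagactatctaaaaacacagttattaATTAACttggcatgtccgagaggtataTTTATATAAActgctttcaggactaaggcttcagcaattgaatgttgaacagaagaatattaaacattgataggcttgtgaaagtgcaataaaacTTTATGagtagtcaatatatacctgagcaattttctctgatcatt
Muc2: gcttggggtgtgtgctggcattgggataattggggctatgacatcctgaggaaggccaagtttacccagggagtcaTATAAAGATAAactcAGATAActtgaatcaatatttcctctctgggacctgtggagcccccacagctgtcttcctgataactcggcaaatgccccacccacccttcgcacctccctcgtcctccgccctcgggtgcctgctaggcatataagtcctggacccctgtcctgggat
Lyz2: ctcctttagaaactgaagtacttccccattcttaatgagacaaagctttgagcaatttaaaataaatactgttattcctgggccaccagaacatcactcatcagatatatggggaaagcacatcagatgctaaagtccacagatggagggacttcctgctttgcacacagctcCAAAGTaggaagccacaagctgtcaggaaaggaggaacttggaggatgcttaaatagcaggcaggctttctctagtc
In *Fabp2* a GATA site on each strand, at 114 and 66 bases before the start, flanked an HNF4 core at 103. The *Fabp1* window held an HNF1 core at 117, a CDX core at 98 and a TATA box at 40. In *Si* the HNF1 core stood at 167 and the CDX core at 45, and 2 TATA boxes on opposite strands overlapped at 140 and 136. *Muc2* had a TATA box at 174 that overlapped the first of 2 GATA sites, at 169 and 159, by a single base. The *Lyz2* window held 1 match, an HNF4 core at 77. Such short words are common: of 27457 promoters in the table, 6.46% held the HNF1 core, 12.8% the HNF4 core, 11.2% the CDX core, 10.05% the GATA site and 13.1% the TATA box. Among the 11734 promoters of measured genes the shares were lower, at 4.32%, 10.3%, 6.57%, 6.62% and 8.06% in that order. Among the 78 promoters found for the 100 brightest genes, the shares were 8.97%, 16.7%, 12.8%, 12.8% and 19.2% in that order. The brightest 10% of measured genes (1174 promoters) had 5.20%, 11.2%, 6.90%, 5.71% and 8.86%. The dimmest 10% (1174 promoters) had 5.88%, 12.0%, 8.94%, 9.45% and 11.4%, higher for every motif. Among 61 promoters of genes that belong to other tissues the shares were 14.8%, 23.0%, 13.1%, 3.28% and 19.7%. Beside the 100 brightest genes, the CDX core (8 of 61 against 10 of 78) and TATA box (12 against 15) were nearly equal. The HNF1 core (9 against 7) and HNF4 core (14 against 13) had higher shares there, and the GATA site (2 against 10) a lower one. These matches are descriptions of the letters and not sites of binding.

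*S100g*, the calcium-binding protein calbindin of the duodenal enterocyte, was the brightest gene on both TW arrays, with a signal of 9066 and 8756. *Fabp1*, *Apoa1*, *Fabp2* and *Rbp2*, the retinol-binding protein of enterocytes (5004 and 6177), were among the 10 brightest genes. So were *COX2* (8756 and 7833) and *COX1* (7067 and 4592), which are mitochondrially encoded subunits of cytochrome c oxidase. *Prap1*, a secreted protein of the gut epithelium that binds lipid, had 5838 and 8414. *B2m*, the light chain of class I histocompatibility molecules, had 6177 and 7067, and *Tm4sf20*, a membrane protein of enterocytes, had 5321 and 6442. The next 20 genes held further surface proteins of enterocytes: *Cdh17*, an intestinal cadherin (4843 and 4643), *Anpep*, aminopeptidase N (4592 and 4313), *Epcam*, an epithelial adhesion molecule (4271 and 4163), and *Lypd8*, a secreted protein that keeps bacteria off the epithelium (5663 and 4953). They also held *Apob*, the structural protein of chylomicrons (3758 and 4542), *Krt8*, a keratin of simple epithelia (4502 and 4397), *Ada*, adenosine deaminase (4469 and 4072), *Gda*, guanine deaminase (4163 and 4373), and *Papss2*, which makes the sulphate donor used for mucins and conjugation (5070 and 5557). The rest of these 20 were *RT1-CE12*, *Txn1*, *Serpinb1a*, *Crip1*, *Rps29*, *Plac8*, *Slc25a5*, *Clca4*, *Atp5f1b*, *Cox6c* and *Ldha*, each with a signal between 3798 and 5663 on both arrays. Of the 100 brightest genes, 0 were more than 2-fold apart between the arrays. These genes carried 20.03% and 20.4% of all signal summed over genes, and the brightest 10% of genes carried 70.6% and 71.0%. Another 28 of the 100 brightest probe sets have no gene symbol or several and could not be named.

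Genes of the brush border were among the brightest on the arrays. Of 15 measured brush border hydrolases, 11 lay in the top 10% of genes on both arrays, where 9.12% of all genes did, and their median percentile was 97.6. Most are peptidases: after *Anpep* came the meprin subunits *Mep1b* (2559 and 2930) and *Mep1a* (2580 and 2338), *Dpp4*, a dipeptidyl peptidase (1883 and 2109), and *Mme*, neprilysin (1609 and 1352). Trehalase, *Treh*, had 73.2 and 82.8. The list's dimmest member was *Folh1*, a folate hydrolase, at 0.506 and 5.55, within the range of the blank controls. *Lct*, lactase, and *Mgam*, maltase-glucoamylase, had no probe set of their own. All 16 measured genes of the brush border skeleton and its adhesion links lay at percentile 85.6 or above (median 97.8, 12 in the top 10% on both arrays). *Vil1*, villin, which bundles the actin core of microvilli, had 3076 and 2700. The protocadherins *Cdhr2* (2846 and 3323) and *Cdhr5* (1925 and 2962), which tie microvilli tip to tip, and *Krt20*, a keratin of mature enterocytes (1999 and 2530), were close to it in rank.

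Of 18 measured junction genes, 13 lay in the top 10% on both arrays (median percentile 96.8). The catenins *Ctnnb1* (3570 and 3375) and *Ctnna1* (1348 and 1999) and E-cadherin, *Cdh1* (1523 and 1445), were bright, as was the desmosomal cadherin *Dsg2* (1109 and 1127). The dimmest probe sets of *Ctnnb1* and *Cdh1* had mean signals of 0.188 and 0.310, within the range of the blank controls. The claudins *Cldn2* (34.2 and 9.62) and *Cldn1* (7.45 and 0.394) were the dimmest, and *Cldn2*, which forms a pore for cations and water in leaky epithelia, was 3.55-fold apart between the arrays.

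Fat absorption had a median percentile of 99.2, with 15 of 20 measured genes in the top 10% on both arrays and 9 among the 100 brightest genes. Besides the binding proteins and *Apob*, *Acsl5*, which activates fatty acids, had 3223 and 3798, and *Apoc3*, an apolipoprotein of chylomicrons, had 3612 and 3299. At the other end, *Cd36*, a fatty acid receptor, had 141 and 250. The sterol exporters *Abcg5* (26.8 and 19.0) and *Abcg8* (10.8 and 20.3) were near the middle of all genes, and *Plb1*, a brush border phospholipase, was at 5.05 and 0.843. The genes of iron and calcium uptake had a median percentile of 99.1 over 10 measured members. These were the highest medians of the 42 lists, and their order depended on the array: fat absorption led on TW replicate 1 (99.08 against 98.8) and iron and calcium uptake on TW replicate 2 (99.3 against 99.1). With a mean over the probe sets of each gene, iron and calcium uptake (98.07) fell below the brush border skeleton (98.25). Over every probe set it (97.93) fell below oxidative phosphorylation (98.24). *Slc40a1*, ferroportin, through which iron leaves the enterocyte, had 3242 and 4204. *Slc11a2*, the apical iron transporter, had 2096 and 3821, *Heph*, the oxidase that works with ferroportin, 2605 and 2846, and *Cybrd1*, the apical ferric reductase, 1394 and 2085. In each of these 4 iron genes TW replicate 2 was the higher array, by less than 2-fold. The calcium pump *Atp2b1* had 2713 and 2559 and the apical calcium channel *Trpv6* 394 and 523. The vitamin D receptor *Vdr* had 15.1 and 15.8 and the exchanger *Slc8a1* 13.1 and 8.19, at percentiles 46.7 and 39.9.

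Of 13 measured transporters of sugars, peptides and amino acids, 6 lay in the top 10% on both arrays (median percentile 89.4). *Slc3a1* (1585 and 1668) and *Slc7a9* (761 and 673) form the brush border carrier of cystine and basic amino acids. *Slc2a2*, the basolateral glucose transporter, had 1448 and 1253, *Slc15a1*, the peptide transporter, 668 and 1166, and *Slc2a5*, the fructose transporter, 330 and 208. *Slc1a1*, a carrier of acidic amino acids, and *Slc36a1*, a proton-coupled one, were at 4.32 and 8.60 and at 1.74 and 6.31, close to the blank controls. Vitamin uptake was uneven, with a median percentile of 85.5 over 10 genes: *Rbp2* was at percentile 99.9, *Amn*, part of the ileal receptor for vitamin B12, had 650 and 529, and its partner *Cubn* had 33.3 and 32.1. The folate carriers *Slc19a1* (292 and 483) and *Slc46a1* (254 and 320) lay at percentiles 92.3 and 90.3. *Bco1*, which cleaves beta-carotene to retinal, had 184 and 92.0, just over 2-fold apart.

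Ion and water transport genes had a median percentile of 94.7, with 13 of 18 measured members in the top 10% on both arrays. *Atp1b1*, the sodium pump's beta subunit, had 2332 and 2863. *Guca2b*, the hormone uroguanylin that regulates salt and water secretion, had 2485 and 2039. *Slc26a6*, an apical anion exchanger of the duodenum, had 1411 and 1552, and *Slc26a3*, the chloride-bicarbonate exchanger best known from the colon, had 1331 and 723. Of the water channels, *Aqp7*, which also carries glycerol, had 611 and 813 and *Aqp11* 306 and 262, at percentiles 96.1 and 90.2, while *Aqp3* had 104 and 110 and *Aqp1*, a channel of vessels, 14.1 and 9.0. *Aqp8* is treated below, since its 2 values did not agree. Enzymes of nitrogen and glucose metabolism had a median percentile of 95.8 over 13 genes. *Gpt*, an alanine aminotransferase, had 2700 and 2359, *Oat*, ornithine aminotransferase, 1816 and 1217, and *Cps1*, the mitochondrial enzyme that starts citrulline synthesis, 1808 and 870. The enzymes that turn citrulline into arginine, *Ass1* (3.61 and 1.29) and *Asl* (4.02 and 16.8), were at percentiles 17.8 and 35.9.

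**Figure D1:**
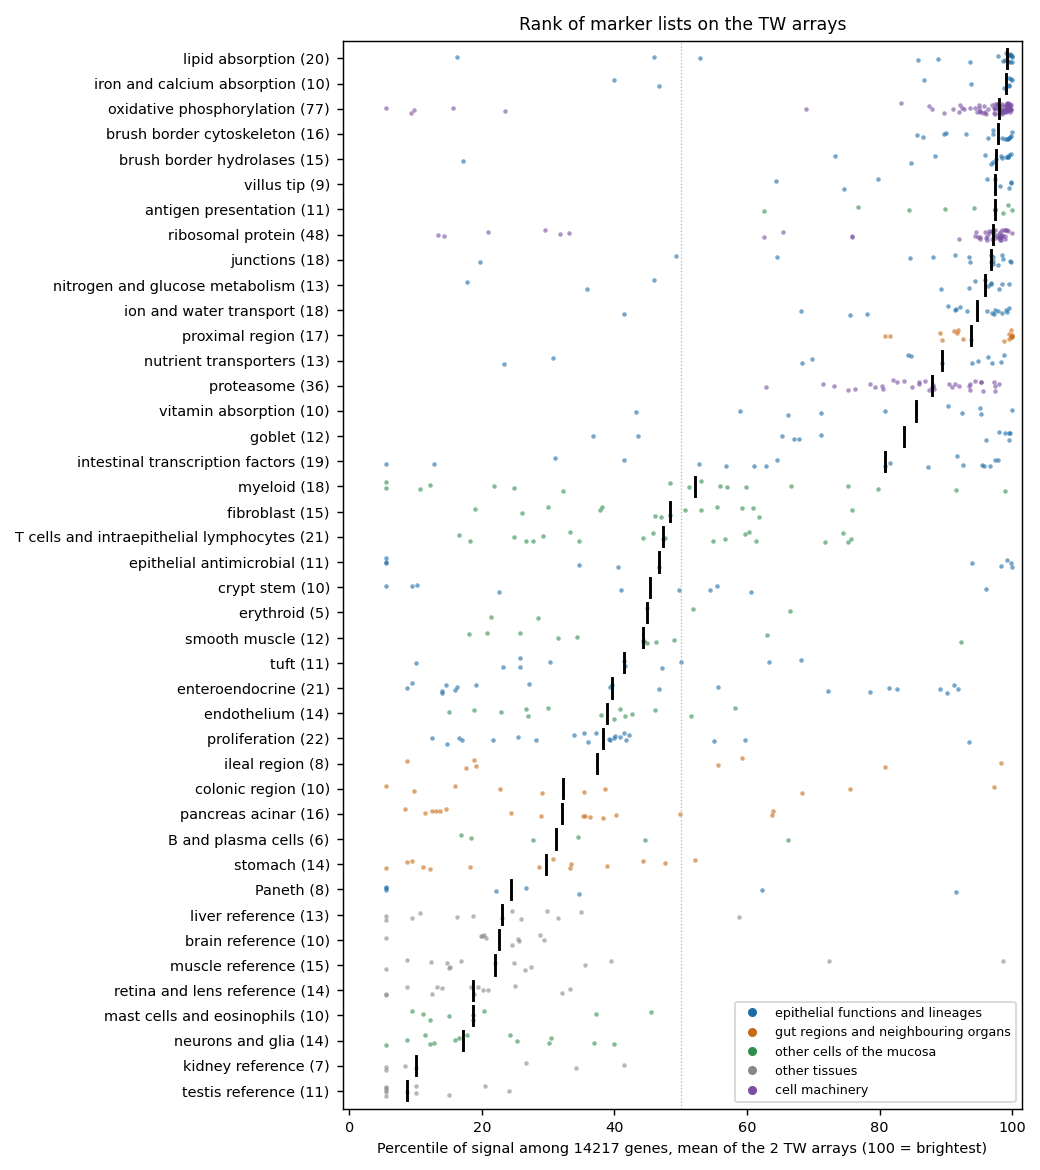
Percentile of signal among 14217 genes (horizontal axis, mean of the 2 TW arrays, 100 the brightest) for the measured members of 42 gene lists (vertical axis, number of measured members in brackets). Each point is a gene, black bars are list medians, colours give the kind of list, and the dotted line marks percentile 50. Lists of the brush border, junctions, absorption, transport and metabolism, with medians from 85.5 to 99.2, sit in the upper part and lists of other tissues near the bottom. Transcription factors have a median of 80.8 and antimicrobial genes of 46.7.

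Transcription factors were spread over the whole range, with a median percentile of 80.8 and 7 of 19 measured genes in the top 10% on both arrays. *Creb3l3*, a factor of lipid metabolism in liver and small intestine, had 1105 and 1234, *Klf4*, a factor of differentiated epithelium, 1107 and 857, and *Hnf4a*, a central regulator of enterocyte genes, 696 and 889. *Klf5*, a Krüppel-like factor best known from the crypt, had 987 and 483 and was 2.04-fold apart. *Pdx1*, the homeodomain factor of the duodenum and pancreas, had 395 and 356. *Foxa1* was at 0.925 and 2.88 and *Ppara*, a fatty acid receptor, at 0.256 and 0.624, both within the range of the blank controls. Of 9 genes that are raised toward the villus tip, 6 lay in the top 10% on both arrays (median percentile 97.4). These were *Ada*, *Apob*, *Klf4*, *Apoa4* (2498 and 2605), the nucleoside carrier *Slc28a2* (1346 and 1216) and the immediate early gene *Fos* (851 and 589). The lowest member, the ecto-nucleotidase *Nt5e*, had 37.5 and 56.

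Goblet cell genes divided into a bright and a dim set. Of 12 measured genes, 6 lay in the top 10% on both arrays and all 6 encode secreted proteins or help to fold them. *Zg16*, a lectin of the mucus, had 2971 and 3586, *Tff3*, the trefoil peptide of goblet cells, 2541 and 2686, and *Fcgbp*, a mucus protein, 1659 and 2130. *Agr2*, which folds mucin in the endoplasmic reticulum, had 1510 and 974, and *Clca1*, a mucus protease, 975 and 524. The other 6 lay at percentile 71.1 or below. The highest of them was *Spink4*, a secreted peptide (54.3 and 87.6), followed by *Sytl2* (56.5 and 55.8) and *Bcas1* (61.7 and 46.8). *Spdef*, the factor that drives goblet cell maturation, had 42.5 and 55.1, *Creb3l1*, a factor of secretory cells, 10.5 and 15.6, and the calpain *Capn9* 12.8 and 5.95. The list's median percentile was 83.6.

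Most Paneth cell genes were dim, apart from *Lyz2* and, at percentile 62.2, *Defa24*. The list's median percentile was 24.4 over 8 measured genes, 6 of them in the lower 50% of genes on both arrays, where 47.1% of all genes lay. Of the alpha-defensins, *Defa24* had 31.0 and 51.6 and *Defa7* 0.180 and 9.62. *RatNP-3b* (5.05 and 11.7) and *Np4* (3.31 and 6.67) are named for neutrophil defensins, and without them the median percentile of the 6 remaining genes was 13.9, a choice made after the values were seen. The list's median also differed between the arrays, at 13.3 on TW replicate 1 and 35.6 on TW replicate 2. *Defa5*, *Mmp7*, which activates defensins, and *Pla2g2a*, a secreted phospholipase, were under 1 on both arrays. *Defa6* and 5 further alpha-defensin names had no probe set of their own, and defensin genes are close copies of each other whose probes may not separate them. In a bulk sample, fewer cells of a type and less RNA per cell cannot be told apart. Macrophage genes, which bear on *Lyz2*, are given further below.

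Antimicrobial genes of enterocytes were split into bright and dim members, with a median percentile of 46.7 over 11 measured genes. *Lypd8*, *Pigr*, the transporter of immunoglobulin A across the epithelium (4072 and 3451), and the lectins *Reg1a* (2102 and 2348), *Reg3b* (1000 and 1877) and *Reg3g* (364 and 610) were in the top 10% on both arrays. The other 6 of the 11 measured genes were in the lower 50% on both, where 47.1% of all genes lay. Among them were *Nos2*, inducible nitric oxide synthase (15.1 and 15.6), and *Lcn2*, a lipocalin of inflamed epithelium (0.424 and 0.624). *Reg3a* (0.751 and 0.195), *Pla2g2a* (0.349 and 0.624) and *Duox2* (7.87 and 7.43) were also in this set.

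Hormone genes of the duodenum stood out within the enteroendocrine list, whose median percentile of 39.6 over 21 genes was otherwise low. *Gip*, the incretin of K cells, had 373 and 314 (percentile 91.8), *Sct*, secretin, 270 and 377 (91.2), and *Cck*, cholecystokinin, 222 and 282 (89.1). *Ghrl*, ghrelin, had 116 and 152, and the granule proteins *Chgb* 304 and 257 and *Cpe* 135 and 156. *Gcg*, the gene of glucagon-like peptides, and *Pyy*, peptide YY, which are hormones of the distal gut, were at 0.349 and 6.85 and at 0.424 and 1.06. The factors that specify the lineage, *Neurog3* (1.33 and 0.394) and *Isl1* (1.25 and 1.52), were within the range of the blank controls.

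Genes of tuft, stem and dividing cells had median percentiles of 41.4, 45.4 and 38.2, against 49.5 for all genes. Of 11 measured tuft cell genes, 7 lay in the lower 50% on both arrays and 0 in the top 10%. Of all genes, 47.1% and 9.12% did. *Ptgs1*, a cyclooxygenase, was highest at 60.6 and 54.4, *Dclk1*, the usual marker, had 12.7 and 10.3, and *Pou2f3*, the factor that makes the lineage, 8.64 and 1.52. Of 10 measured crypt stem genes, 5 lay in the lower 50% and 1 in the top 10% on both arrays, close to the shares of all genes. *Lgr5*, the receptor that marks cycling stem cells, was under 1 on both arrays, and *Ascl2*, its partner factor, was at 0.506 and 1.29. *Hopx*, used as a marker of reserve stem cells, had 788 and 600 and lay at percentile 96, while the next gene, *Prom1*, had 37.6 and 34.5. *Smoc2* (24.9 and 28.1), *Cd44* (21.2 and 29.0) and *Axin2* (16.9 and 20.3) also lay above the blank controls. Of 22 measured proliferation genes, 19 lay in the lower 50% on both arrays (median percentile 38.2). *Mki67*, the Ki-67 antigen, had 28.5 and 22.9 and the cell cycle kinase *Cdk1* 0.925 and 5.17. *Pcna*, the replication clamp, was the exception at 523 and 370.

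Genes of the proximal small intestine were bright on both arrays. Of genes that mark the ileum or the colon, 1 of 8 and 1 of 10 lay in the top 10% on both. The share over all genes was 9.12%. The proximal list shares members with the absorption and hormone lists. All 17 measured proximal genes lay in the upper 50% on both arrays, where 47.1% of all genes lay, and 12 were in the top 10%. The lowest of them, *Bco1*, was at percentile 80.8, and *Gata4*, a factor of the duodenum and jejunum that is absent from the ileum, had 146 and 123. Of 8 measured ileal genes, 4 lay in the upper 50% on both arrays and 4 in the lower 50%, against 47.1% of all genes in each. *Fabp6*, the ileal bile acid binding protein, had 6.82 and 0.624, and *Fgf19*, the bile-acid-induced hormone of the ileum, 5.90 and 0.624. *Slc10a2*, the ileal bile acid transporter, had 22.1 and 50.6, and *Nts*, neurotensin, 23.2 and 31.0. *Slc51a*, a subunit of the basolateral bile acid exporter, was the bright one at 1352 and 1416, and *Nr1h4*, the bile acid receptor, had 126 and 129. Of 10 measured colonic genes, 7 lay in the lower 50% on both arrays. *Slc26a3* was the only one in the top 10% on both arrays, and *Aqp8* (299 and 35.8) reached the top 10% on TW replicate 1 alone. *Car1*, a carbonic anhydrase of colonocytes, had 44.4 and 74.7, while *Hoxb13* and the proton pump *Atp12a* were at 1.40 and 0.394 and at 0.836 and 0.394.

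**Figure D2:**
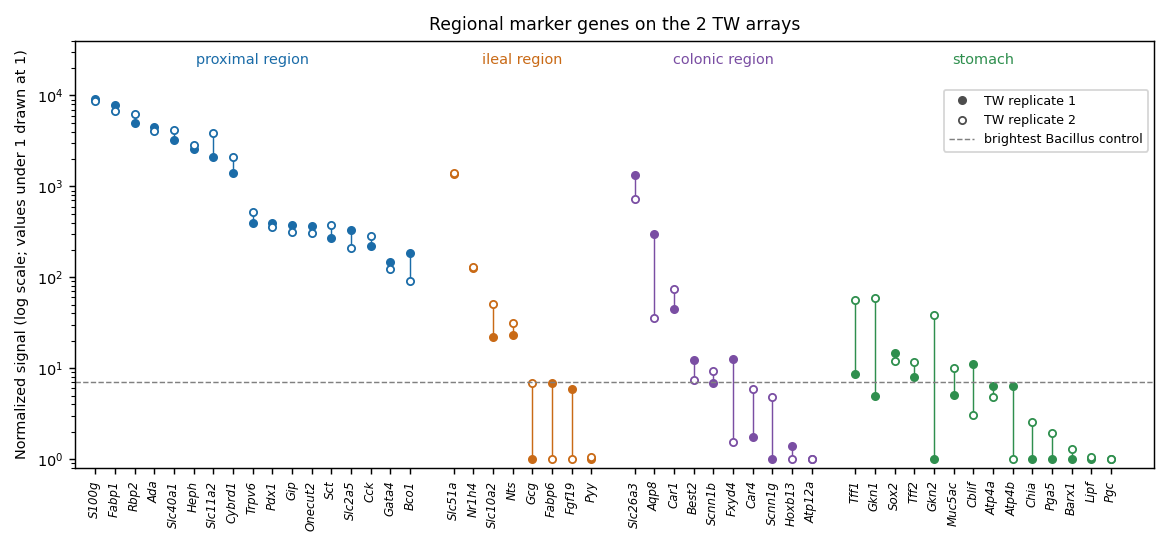
Normalized signal (vertical axis, log scale, values under 1 drawn at 1) of the measured proximal, ileal, colonic and stomach genes (horizontal axis, ordered within each list) on TW replicate 1 (filled) and TW replicate 2 (open). The dashed line at 7.03 is the brightest of the 27 *Bacillus* control probe sets. Every proximal gene lies above it on both arrays, while *Fabp6* and *Fgf19* do not exceed it on either.

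Of the cells that lie under or within the epithelium, T cell and myeloid lists lay near the middle of all genes. A bulk sample does not show which cells a signal came from. The T cell and intraepithelial lymphocyte list had a median percentile of 47.4 over 21 genes, and none was in the top 10% on both arrays. *Cd3g*, a chain of the T cell receptor complex, was highest at 155 and 56.6. *Gzma* (76.4 and 104) and *Gzmb* (78.2 and 90.5), granzymes of cytotoxic lymphocytes, *Ccl5* (75.6 and 66.4), *Cd7* (41.0 and 35.3) and *Itgae*, the integrin that holds lymphocytes in the epithelium (45.2 and 27.8), came next. Of the other CD3 chains, *Cd3d* had 17.6 and 10.2 and *Cd3e* 6.29 and 0.843. The myeloid list had a median percentile of 52.2 over 18 genes. *Ctss*, a lysosomal protease that epithelial cells can express too, had 1898 and 1737, and the complement genes of macrophages, *C1qa*, *C1qc* and *C1qb*, had 144 and 98.5, 57.4 and 48.2, and 36.1 and 33.1. *Cd14* and *Itgam* were under 1 on both arrays. Genes of antigen presentation were bright, with 7 of 11 in the top 10% on both arrays: *Cd74*, the class II invariant chain, had 2286 and 2322, and the class II chain *RT1-Da* 1469 and 1599.

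Averaged over the 2 arrays, lists of stromal and neighbouring tissues lay at or below the middle of all genes, whose median percentile was 49.5. The fibroblast list differed between the arrays, at 57.0 on TW replicate 1 and 42.3 on TW replicate 2. Median percentiles were 48.4 for fibroblasts (15 genes), 44.4 for smooth muscle (12), 39.0 for endothelium (14), 44.9 for red cells (5), 31.1 for B and plasma cells (6), 18.6 for mast cells and eosinophils (10) and 17.2 for neurons and glia (14). Of the fibroblast genes, 5 of 15 lay in the upper 50% on both arrays, and *Col3a1*, a collagen of loose connective tissue, was the highest at 138 and 63.0. Of the endothelial genes, *Plvap*, of capillary endothelium, had 37.4 and 25.8. *Acta2*, *Des* and *Myh11*, which define smooth muscle, had 16.6 and 13.6, 15.9 and 11.3, and 19.9 and 9.82. Beta-globin, *Hbb*, had 48.2 and 56.6. *Mylk*, a myosin light chain kinase that epithelia also use, was the one member of the smooth muscle list in the top 10%, at 396 and 334. The stomach list (14 genes) had a median percentile of 29.7 and the pancreatic acinar list (16 genes) 32.1. For comparison, 70 genes that belong to muscle, eye, testis, brain, liver or kidney had a median percentile of 19.1, and 67 of them were in the lower 50% on both arrays.

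Cell machinery was bright as a group. Of 77 measured genes of oxidative phosphorylation, 66 lay in the top 10% on both arrays (median percentile 98.0), the brightest being *Atp5f1b*, a subunit of ATP synthase (3798 and 4502). This list holds nuclear genes and leaves out the mitochondrially encoded *COX1* and *COX2*, whose signals were higher. The members under percentile 25 were *Cox6b2*, *Cox7b2*, *Cox4i2*, *Cox8b* and *Cox6a2*, which are the isoforms of testis, lung or muscle. Of 48 ribosomal protein genes, 38 were in the top 10% (median percentile 97.0). The 36 proteasome genes had a median percentile of 88.0, with 14 in the top 10% and none below percentile 62.9.

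The 2 TW arrays agreed across genes with a Pearson correlation of 0.932 on the log2 scale and a Spearman correlation of 0.935 (14217 genes, which are not independent replicates). A filter was set at 7.05 on the geometric mean signal of the 2 arrays (the mean of log2 values), which was its median over all probe sets. It removed some genes that were bright on 1 array only, such as *Gkn2* and *Cpb1*. The filter kept 9196 genes, with a Pearson correlation of 0.957 and a median difference in size of 0.32 log2 units. Of these, 796 genes (8.66%) were more than 2-fold apart, 454 higher on TW replicate 1 and 342 higher on TW replicate 2. Agreement rose with level. In the dimmest 10% of these genes 27.7% were more than 2-fold apart and the median gene differed 1.52-fold. In the brightest 10% 2.28% were, and the median gene differed 1.16-fold. The TW pair was the least alike of the 4 pairs: 6.87% of genes were over 2-fold apart in DSW1200, 4.27% in WR and 2.60% in SeW, with correlations over all genes of 0.943, 0.953 and 0.963. Median deposited signal (8.4 and 4.3) and the 3' to 5' ratio of beta-actin (24.1 and 20.6) differed within the TW pair too, and their part in this distance was not tested.

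**Figure D3:**
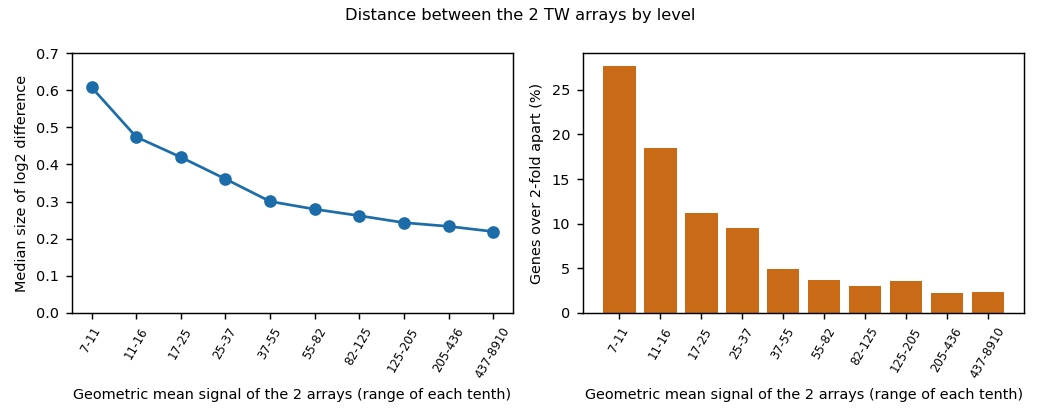
Distance between the 2 TW arrays in 9196 genes, split into equal bins by geometric mean signal (horizontal axes, range of each bin). The left panel gives the median size of the log2 difference and the right panel the percentage of genes over 2-fold apart, which falls from 27.7% in the dimmest 10% to 2.28% in the brightest.

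Few genes of the enterocyte lists were over 2-fold apart between the arrays, and counts this small do not rank the lists. Of genes above the filter, 0 of 14 brush border hydrolases, 0 of 16 brush border skeleton genes, 0 of 19 fat absorption genes and 0 of 10 iron and calcium genes were over 2-fold apart, against 8.66% of all such genes and 2.28% of the brightest 10%, where many of these genes lie. Median differences, TW replicate 1 minus TW replicate 2, were 0.08, -0.24, -0.13 and -0.25 log2 units. The count was also 0 of 11 nutrient transporters, 0 of 9 villus tip genes and 0 of 72 oxidative phosphorylation genes. It was 2 of 17 junction genes (*Cldn2* and *Tjp3*, a scaffold protein of tight junctions, 31.9 and 66.2), 2 of 12 genes of nitrogen and glucose metabolism (*Asl*, 4.19-fold, and *Cps1*), and 2 of 16 transcription factors (*Klf5* and *Cdx1*, an intestinal homeodomain factor, 7.45 and 17.7). It was 1 of 10 vitamin genes (*Bco1*) and 1 of 18 ion and water transport genes (*Aqp8*).

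Fibroblast genes were higher on TW replicate 1. All 12 above the filter were higher on TW replicate 1, 7 of them by over 2-fold, with a median difference of 1.10 log2 units, while 4359 of all 9196 genes were higher on that array. *Col3a1* had 138 and 63.0, *Lum*, a proteoglycan of the matrix, 53.5 and 25.1, *Col6a1* 44.1 and 11.7, *Col1a1* 30.2 and 9.62, *Dcn*, decorin, 28.8 and 13.3, *Fn1*, fibronectin, 26.6 and 9.41, and *Dpt* 14.8 and 5.75. Within the other pairs the same list had medians of -1.04 in DSW1200, -0.27 in SeW and 0.30 in WR. Most other lists of cells outside the epithelium leaned the same way on TW. Higher on TW replicate 1 were 3 of 3 B and plasma cell genes (median 1.63), 2 of 3 mast cell and eosinophil genes (1.16), 5 of 8 endothelial genes (0.43), 9 of 11 myeloid genes (0.29), 5 of 8 smooth muscle genes (0.26) and 10 of 14 T cell genes (0.24). Those over 2-fold higher there included *Mcpt1* (92.4 and 30.8) and *Tpsb2* (13.3 and 5.95), proteases of mast cells, *Kdr*, a receptor of endothelium (37.9 and 11.3), *Cd3g* and *Ptprc*, the leukocyte antigen CD45 (53.2 and 21.6), and *Aif1*, a macrophage gene (41.8 and 19.8). *Myl9*, a myosin light chain of smooth muscle, went the other way at 12.2 and 26.1. The lean was not particular to such cells: 33 of 42 ribosomal protein genes (0.18) and 12 of 18 ion and water transport genes (0.21) shared it. Against it, 9 of 12 enteroendocrine genes (-0.37) and 12 of 16 brush border skeleton genes (-0.24) were higher on TW replicate 2. In DSW1200, SeW and WR the medians were 0.16, -3.47 and -0.94 for B and plasma cell genes and -0.47, -0.14 and 0.10 for endothelial genes.

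Pancreatic acinar genes were higher on TW replicate 1 in 6 of 7 above the filter, with a median of 1.10. *Pnlip*, pancreatic lipase, had 31.3 and 2.35, the elastases *Cela2a* 22.0 and 2.35 and *Cela1* 63.7 and 29.7, and *Prss1*, a trypsinogen, 19.5 and 3.03. *Cpb1*, a carboxypeptidase that did not pass the filter, had 28.5 and 1.74. *Pnliprp2*, a lipase-related protein, went the other way at 29.4 and 66.2. In WR the list's median was -1.99, so its spread within a pair was not particular to TW. Of the stomach genes above the filter, 4 of 5 were higher on TW replicate 2, with a median of -0.98, against 0.69 in DSW1200, -0.37 in SeW and 0.02 in WR. The distance was widest in 3 genes of the surface mucous cells, *Gkn1* (4.94 and 59.0), *Tff1* (8.64 and 56.8) and *Gkn2* (0.587 and 38.6), the last of which did not pass the filter. *Sox2* (14.7 and 12.1) and, under the filter, *Cblif*, which codes for intrinsic factor (11.1 and 3.03), and the proton pump subunits of acid-secreting cells *Atp4a* (6.29 and 4.82) and *Atp4b* (6.29 and 0.624) were higher on TW replicate 1. *Pgc*, of pepsin-secreting cells, was under 1 on both arrays. The part of these neighbouring tissues in the differences of other genes was not tested.

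**Figure D4:**
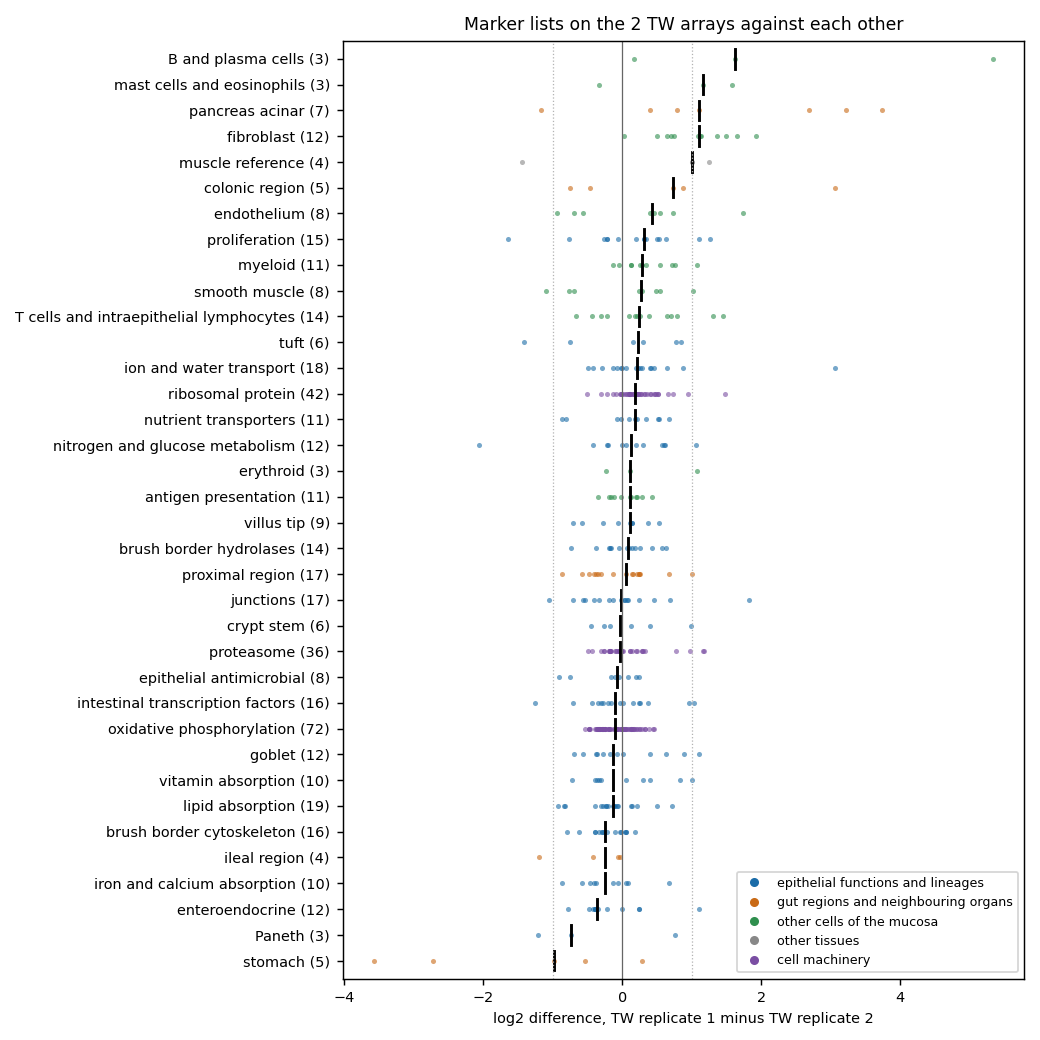
Difference in log2 signal between the TW arrays (horizontal axis, TW replicate 1 minus TW replicate 2) for genes above the filter in each list with at least 3 such genes (vertical axis, number of genes in brackets). Points are genes, black bars list medians, and dotted lines mark 2-fold; fibroblast and pancreatic genes have a median of 1.10 and stomach genes of -0.98.

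A few single genes were far apart. *Jchain*, which joins the chains of secreted immunoglobulin A and is made by plasma cells, had 397 and 9.82, a 40.5-fold difference, and ran from 25.7 to 710 on the other 6 arrays. *Mzb1*, another plasma cell gene, had 24.2 and 7.82. *Nxpe4* had 1.40 and 176, and the other 6 arrays also spanned 3.34 to 189. *Slc27a2*, a fatty acid transport protein and acyl-CoA synthetase, had 72.8 and 757, and none of the other 6 arrays exceeded 122. *Aqp8*, a water channel that is strong in the colon, had 299 and 35.8, and its range on the other 6 arrays was 118 to 297. *Zp2* had 112 and 1.52, and *Palldl1* 11.1 and 248. The rest of the 10 furthest apart in each direction among genes above the filter were *Repin1*, *Mpp2*, *Ptges3l*, *Zfp358* and *Dok7* on TW replicate 1 and *Dnm2*, *Prag1*, *Tnfrsf1b*, *Urm1* and *B4galt1* on TW replicate 2, beside the pancreatic and stomach genes given above. Of these 20, 15 had their dimmer array under the highest blank control. *Gkn2* (38.6-fold) and *Cpb1* (16.4-fold), which the filter removed, were further apart than most of them. Of the listed genes above the filter not yet given, *Myh1*, *Acta1*, *Scg3*, *Mcm7*, *Ube2c*, *Stmn2*, *Hba-a3*, *Fga*, *Ahsg*, *Rpl39*, *Psmc6* and *Psmd12* were over 2-fold higher on TW replicate 1, and *Ltc4s*, *Aurka* and *Ryr1* on TW replicate 2.

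**Figure D5:**
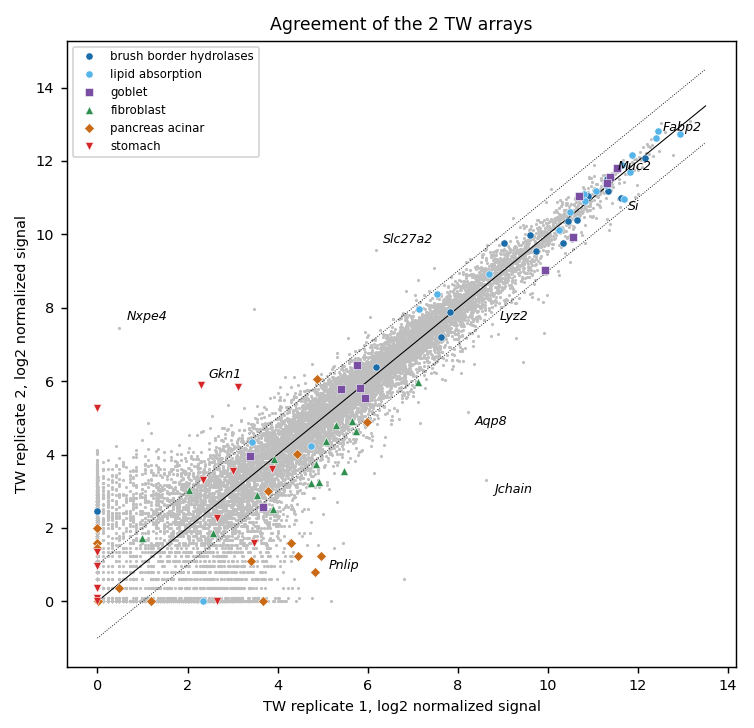
Log2 normalized signal of 14217 genes on TW replicate 1 (horizontal axis) and TW replicate 2 (vertical axis). The solid line marks equality, dotted lines mark 2-fold, colours mark 6 gene lists and names mark single genes; brush border and fat absorption genes lie near the line at the upper end, while *Jchain* (397 and 9.82) and *Slc27a2* (72.8 and 757) lie far from it.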

How the data were processed

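Total RNA of the 2 TW samples had been hybridised to Affymetrix rat expression arrays. The deposited values are linear signal intensities, 1 per probe set, which the authors made with MAS5 as the submitters' processing notes state. Its version and scaling target are not given in the sources used here.

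The study's methods state quantile normalization of microarray data. The deposited medians differed between arrays, so all 8 arrays were quantile normalized here over 31099 probe sets, a floor of 1 was set and values were converted to log2. Printed signals are normalized values before the floor of 1, except that the furthest-apart genes and the ranges on other arrays are given after it. Gene symbols came from the platform annotation, by Entrez number for 20758 probe sets, by accession for 2 and as the array's own symbol for 66. Those with several symbols (436) or none (9780) and 57 controls were left out. Of 14217 genes, 9692 had 1 probe set, and each of the others was represented by the one with the highest mean over the 8 arrays. The filter for agreement was a geometric mean signal of 7.05 over the 2 TW arrays.

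With 1 group of 2 arrays no test was made. The members and the 42 gene lists were chosen with earlier results of these data known. Genes named are the 5 markers, the 30 brightest genes, up to 6 highest and 4 lowest members of each list, members whose absence defines a region or cell type, members over 2-fold apart above the filter, and the 10 furthest apart in each direction above it. Genes named beside these were chosen after their values were seen. Of 766 listed names, 87 had no probe set of their own. Normalization and percentiles were tested on simulated data. Python 3.11.15, numpy 2.4.6, pandas 2.3.3 and matplotlib 3.10.9 were used. Alternatives were the deposited values, median centring, normalization over the 2 TW arrays, an offset of 32, the mean of probe sets, every probe set, no filter, a stricter filter, each array alone and percentiles among genes above the filter. The Paneth list without 2 neutrophil-type defensins was added after seeing the data.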

Additional observations from a re-analysis of the deposited data

How the results depend on the processing

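No paired analysis was possible because the values come from 1 group and from no test. Distance between the TW arrays depended on the scale. As deposited, the median log2 distance was 0.55 and 22.9% of genes were over 2-fold apart. With median centring these were 0.54 and 14.1%, and with an offset of 32 they were 0.18 and 0.804%, with a correlation of 0.981 across genes. The correlation was 0.920 over every probe set and 0.956 with the stricter filter, under which 3.34% were over 2-fold apart, against 23.5% with no filter. Median percentiles moved by under 10 points in all 42 lists as deposited, with median centring, with normalization over the TW arrays alone and with the offset. With a mean over all probe sets of each gene they were 96.4 for brush border hydrolases, 98.3 for fat absorption, 86.4 for goblet, 45.9 for enteroendocrine, 41.5 for proliferation, 95.4 for proximal and 42.5 for ileal genes. Over every probe set they were 98.7 for fat absorption, 90.9 for goblet, 47.2 for enteroendocrine, 43.1 for proliferation and 43.7 for ileal genes. Among genes above the filter alone they were 96.8 for hydrolases, 98.9 for fat absorption, 74.6 for goblet, 41.6 for Paneth, 69.0 for enteroendocrine, 9.78 for proliferation, 90.4 for proximal and 53.6 for ileal genes, since this ranks fewer genes and drops dim members. On 1 array alone the medians ranged from 97.5 to 98.2 for hydrolases, 99.08 to 99.1 for fat absorption, 83.5 to 84.8 for goblet, 39.8 to 42.1 for enteroendocrine, 42.3 to 45.4 for ileal and 13.3 to 35.6 for Paneth genes. Without *RatNP-3b* and *Np4*, left out after seeing the data, the Paneth median was 13.9. The pancreatic list moved furthest between single arrays, from 18.8 on TW replicate 2 to 44.1 on TW replicate 1. With the mean over probe sets 20 lists rose and 22 fell, and over every probe set 26 rose and 16 fell. The mean gave 90.1 for villus tip genes, 70.6 for transcription factors, 91.2 for junctions, 88.6 for antigen presentation and 53.9 for fibroblasts. Over every probe set villus tip genes fell furthest, to 84.9. Dim genes set the limit: 32.7% and 30.5% of genes lay at or under the highest blank control, and 2 arrays give only a rough spread.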

Other observations

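*Myh1*, a fast skeletal muscle myosin, was the exception among the 70 genes of other tissues: its signal was 2625 and 1110 on the TW arrays, at percentile 98.6, while *Acta1*, skeletal actin, had 106 and 52.8 and *Ckm*, muscle creatine kinase, 3.21 and 3.81. The probe set of *Myh1* is of the type whose probes may also match other transcripts. Without *Myh1* the 69 remaining genes of other tissues reached at most percentile 72.3.

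Among 3241 genes with a geometric mean signal over 100 on the TW arrays, which leaves out *Jchain* and *Palldl1* for their 1 dim array, 86 were more than 2-fold apart between the TW arrays, 64 higher on TW replicate 1 and 22 higher on TW replicate 2. *Arid1b*, a chromatin remodelling subunit, had 694 and 92.6, against 364 to 630.2 on the other 6 arrays. *Ddx60*, an antiviral helicase, had 966 and 160.4, against 681 to 1144. *Serinc1* had 630.2 and 145, against 676 to 1021. *Slc6a4*, the serotonin transporter of enterocytes, had 1015 and 324, against 621 to 815. The immediate early gene *Egr1* had 473 and 157, against 206 to 512. On the higher side of TW replicate 2, *S100a6* had 1072 and 2428, against 1706 to 1961, and *Ccl20*, a chemokine of the follicle epithelium, had 176 and 542, against 186 to 407. These genes were chosen after their values were seen.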
